A study of Mus musculus with 11 samples.

Results

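The replication-dependent H2A and H2B histone genes of the mouse were followed in cultured neural progenitors in which *Smg6*, the gene of the RNA endonuclease SMG6, had been deleted. Members were all genes whose symbol begins with Hist, a cluster number from 1 to 4, and h2a or h2b, in the annotation of the counts. This gave 39 of the 53801 genes counted, of which 20 were H2A and 19 were H2B genes. Among the 39, 36 were annotated as protein coding and 3 (*Hist1h2aj*, *Hist1h2al* and *Hist3h2bb-ps*) as pseudogenes. The Hist1 cluster on chromosome 13 held 30 of them, the Hist2 cluster on chromosome 3 held 6 and the Hist3 cluster on chromosome 11 held 3, whereas the Hist4 cluster held 0.

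H2A and H2B form the dimers that flank the H3-H4 tetramer in the nucleosome. Cells make them in bulk during S phase, from many near-identical genes without introns, and the mRNAs end in a conserved stem-loop in place of a poly(A) tail. The stem-loop is bound by the protein SLBP, which serves processing, translation and the timed decay of these mRNAs. At the end of S phase, or when replication stops, they are degraded quickly in a process that involves the helicase UPF1, a factor that also acts in nonsense-mediated decay (NMD) beside SMG6.

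Neural stem cells came from E13.5 brains of mice on a mixed C57BL/6 and 129SV background, and every culture carried *Smg6* flox/flox. The Ctr group (3 embryos) carried RosaCreER tg/+ and received no treatment. The Ctr + 4-OHT group (4 embryos) was RosaCreER +/+ and received 1 µM 4-hydroxytamoxifen (4-OHT), which activates the CreER recombinase, for 3 days by the labels. The *Smg6*-iKO group (4 embryos) carried RosaCreER tg/+ and received the same 4-OHT, and RNA was taken 6 days after its start. The CreER transgene is expressed from the Rosa26 locus, in all cell types. Libraries are named by group and by the embryo's name in the labels. The embryos SMH_128, SMH_132 and SMH_133 each gave a Ctr and a *Smg6*-iKO library, a pairing by animal. No group combined active CreER with an unfloxed *Smg6*, so an effect of active CreER and an effect of the deletion cannot be told apart. Totals of 26418249 to 33756875 counted reads per library were deposited, and members took 0.171% to 0.202% of them in the control libraries and 0.133% to 0.148% in the *Smg6*-iKO libraries. No 2 libraries of a group held duplicate counts. *Smg6* itself, counted over its whole length with its unfloxed exons, lay at 62.3 to 71.9 CPM (counts scaled to a common library size) in the *Smg6*-iKO libraries, 66.5 to 72.3 in Ctr + 4-OHT and 69.4 to 79.4 in Ctr. Its log2 fold change was -0.059 (SE 0.066, adjusted p = 0.703 by the quasi-likelihood test of edgeR) against Ctr + 4-OHT and -0.17 (SE 0.071, adjusted p = 0.148) against Ctr, the latter with an adjusted p of 0.0430 when the embryo was used as a block. This count does not show the state of the floxed exons. The neural progenitor markers *Sox2* (179 to 320 CPM) and *Nes* (720 to 1018 CPM) were present in every library.

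The sequences that these genes share set what could be counted. Libraries were ribosome-depleted total RNA, so mRNAs without a poly(A) tail were retained, but reads were 50 bases long and those that mapped to several positions were not counted. Coding sequences of 393 bases in 15 H2A genes were identical by a median of 96.4% between pairs of genes (77.6% to 100%), with 2 identical pairs, and those of 381 bases in 14 H2B genes by a median of 94.8% (82.9% to 99.0%). The stem-loop that ends the mRNA was found after the stop codon in the annotated transcript of 21 members. Of its 16 bases, 18 members shared one form, *Hist1h2bb* and *Hist1h2bk* carried a second and *Hist2h2ac* carried the last. It is printed in capitals with its neighbouring bases in the transcripts of GENCODE M21 (GRCm38), in the sense strand, for the gene with the largest fall against Ctr + 4-OHT (*Hist1h2ae*), for carriers of the other forms, and for both Hist3 coding genes.
Hist1h2ae: acaaaGGCTCTTTTCAGAGCCattca
Hist1h2bb: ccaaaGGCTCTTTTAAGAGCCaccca
Hist2h2ac: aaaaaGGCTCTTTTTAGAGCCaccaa
Hist3h2a: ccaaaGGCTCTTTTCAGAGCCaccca
Hist3h2ba: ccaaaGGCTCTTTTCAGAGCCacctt
*Hist3h2a*, whose level hardly differed between groups, carried the same stem-loop letters as *Hist1h2ae*. The annotated models differed in what follows the loop. The model of *Hist1h2ae* ran 151 bases past it, that of *Hist1h2bb* 23 bases and that of *Hist3h2a* 1643 bases, so the count of *Hist3h2a* covers a long stretch beyond the processed end of a replication-dependent mRNA. The same holds for *Hist1h2ac* (2010 bases), *Hist1h2be* (1861 bases) and *Hist1h2bh* (1214 bases). Their log2 fold changes against Ctr + 4-OHT were -0.40, -0.38 and -0.43, and all were called lower against Ctr by edgeR.

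Upstream sequences were also alike. RefSeq held a promoter for 34 of the 39 members, and within the 250 bases before the start site, on both strands, all 34 held the letters CCAAT, the core of the element bound by the factor NF-Y, against 34.5% of all 27025 promoters. The octamer ATTTGCAT, the element bound by OCT1 (*Pou2f1*) and known from H2B promoters, was found in 13 of the 34 (7 of 18 H2A and 6 of 16 H2B genes) and in 1.61% of all promoters. TATAAA was found in 15 of the 34 and in 13% of all promoters. In 14 places an H2A and an H2B gene started within 1000 bases of each other in opposite directions, so that 28 members shared a start region with a partner. A match between the start sites of partners could thus be counted for both genes, and the 34 promoters are not independent. Where start sites lay closer than 250 bases, the search also reached into the partner gene. The shared region of *Hist1h2bg* and *Hist1h2ae* (chr13:23571221-23571399, read towards *Hist1h2bg*), the region before *Hist1h2bb* (chr13:23746484-23746733, plus strand), the member with the most counts, and the region before *Hist3h2a* (chr11:58954513-58954684, plus strand) are shown from RefSeq on GRCm38.p6, with all matches to the 3 motifs on either strand in capitals.
Hist1h2bg and Hist1h2ae: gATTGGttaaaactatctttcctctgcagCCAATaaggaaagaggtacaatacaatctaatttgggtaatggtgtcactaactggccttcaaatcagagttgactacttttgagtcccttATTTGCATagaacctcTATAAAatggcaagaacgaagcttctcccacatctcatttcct
Hist1h2bb: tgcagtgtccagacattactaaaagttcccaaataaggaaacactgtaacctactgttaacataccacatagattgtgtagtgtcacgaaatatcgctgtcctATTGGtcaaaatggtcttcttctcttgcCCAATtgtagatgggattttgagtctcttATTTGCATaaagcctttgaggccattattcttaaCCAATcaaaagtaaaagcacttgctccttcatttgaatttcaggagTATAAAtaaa
Hist3h2a: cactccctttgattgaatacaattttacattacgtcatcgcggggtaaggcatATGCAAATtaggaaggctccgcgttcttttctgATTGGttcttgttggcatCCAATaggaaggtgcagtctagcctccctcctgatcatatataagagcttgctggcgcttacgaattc
The octamer stood in all 3 regions, in that before *Hist3h2a* as well, and TATAAA in those of *Hist1h2bg* and *Hist1h2bb*.

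Of the 39 members, 31 passed the filter on low counts in every comparison. The 8 others (*Hist1h2aa*, *Hist1h2aj*, *Hist1h2ao*, *Hist1h2ap*, *Hist1h2bq*, *Hist1h2br*, *Hist2h2aa1* and *Hist2h2aa2*) had at most 9 counts in any library. Each member was divided into windows of 50 bases, the length of a read, and compared with the transcripts of all genes at other loci. In 7 of these 8 genes at most 11.3% of windows were found nowhere else. *Hist1h2ao* and *Hist1h2bq*, for example, shared nearly all windows with the pair *Hist1h2ap* and *Hist1h2br*, and *Hist2h2aa1* was listed at 0 in all libraries. For these 7 genes a low level cannot be told apart from a lack of countable sequence. *Hist1h2ah* and *Hist1h2ai*, with 9.27% and 9.88% of windows to themselves, nevertheless had at least 798 counts in every library. *Hist1h2aa*, a testis-type H2A gene, had 97.7% of windows to itself and 1 to 8 counts. Its partner *Hist1h2ba*, the testis-type H2B gene, was low but tested, with 55 to 92 counts. Among the 31 tested genes the share of windows found nowhere else had a median of 55.9% and a minimum of 9.27% (*Hist1h2ah*), so levels of different genes also depend on this share. The share is that of the reference transcripts and is one value for all libraries.

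**Figure D1:**
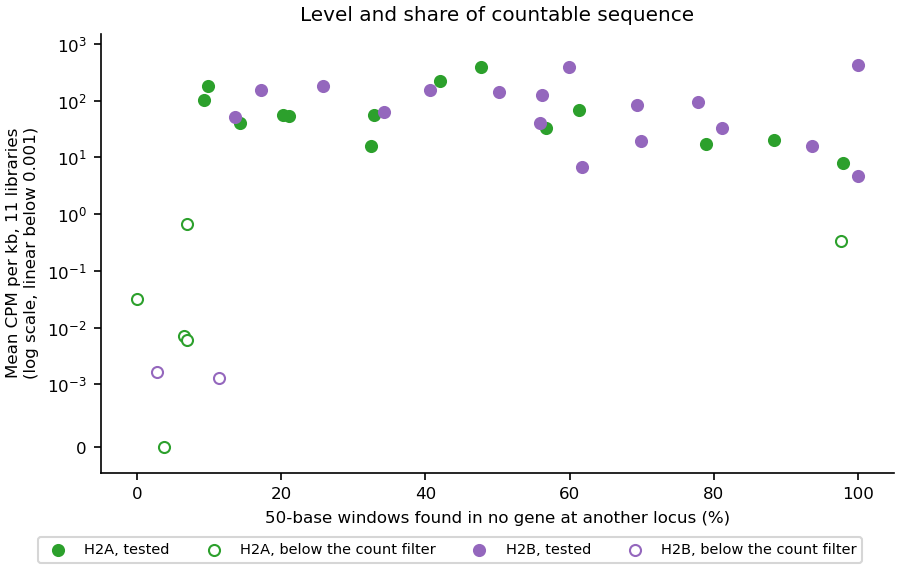
Mean level of each of the 39 members over the 11 libraries, in CPM per kb of counted length, against the percentage of its 50-base windows that occur in no transcript of a gene at another locus. Open points are the 8 members below the count filter, 7 of which lie at 11.3% or less.

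Per kb of counted length, the highest levels in Ctr were those of *Hist2h2bb* (469 ± 36.8 CPM per kb, SD, n = 3), *Hist1h2bb* (468 ± 19.0) and *Hist1h2ak* (441 ± 39.1), whose differences were less than their spread between embryos. *Hist1h2ab* followed at 250 ± 9.6 and *Hist1h2ai* at 205 ± 14.4, with *Hist1h2bk* (201 ± 17.6) within the spread of the latter. The 4 members with the largest share of counts made up 36.3% of the summed CPM of all members in Ctr. *Hist2h2ac* was the highest Hist2 H2A gene (74.3 ± 4.1 CPM per kb), and *Hist3h2ba* the highest of the Hist3 cluster (113 ± 10.0). At the low end of the tested genes stood *Hist3h2a* (7.8 ± 1.0 CPM per kb), *Hist1h2ba* (6.7 ± 1.0) and *Hist2h2be* (4.9 ± 0.4), all within a few CPM per kb of each other. The models of *Hist3h2a* and *Hist2h2be* are over 1000 bases long, which lowers a level per kb where reads gather near the coding part.

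The summed expression of both classes was lower in *Smg6*-iKO than in either control. Summed over the 20 H2A genes, the *Smg6*-iKO libraries held 465, 498, 467 and 495 CPM, the Ctr + 4-OHT libraries 683, 628, 689 and 657 CPM, and the Ctr libraries 700, 615 and 717 CPM. Over the 19 H2B genes the values were 843, 925, 847 and 959 CPM in *Smg6*-iKO, 1243, 1098, 1263 and 1180 CPM in Ctr + 4-OHT, and 1294, 1194 and 1333 CPM in Ctr. Every *Smg6*-iKO library thus lay below every control library for each class, while the 2 control groups overlapped. The mean H2A sum of *Smg6*-iKO (481 ± 17.8 CPM, SD, n = 4) was 27.6% below that of Ctr + 4-OHT (664 ± 27.8, n = 4) and 28.9% below that of Ctr (677 ± 54.6, n = 3). For H2B, *Smg6*-iKO (894 ± 57.9 CPM) was 25.3% below Ctr + 4-OHT (1196 ± 74.3) and 29.8% below Ctr (1274 ± 71.5). The ratio of the H2B to the H2A sum was 1.86 ± 0.058 in *Smg6*-iKO, 1.80 ± 0.038 in Ctr + 4-OHT and 1.88 ± 0.051 in Ctr, and the range of *Smg6*-iKO (1.81 to 1.94) overlapped both others. No test was run on sums, because the genes had been chosen with earlier results of these data known. In bulk RNA, fewer cells in S phase and less histone mRNA per cell cannot be told apart.

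**Figure D2:**
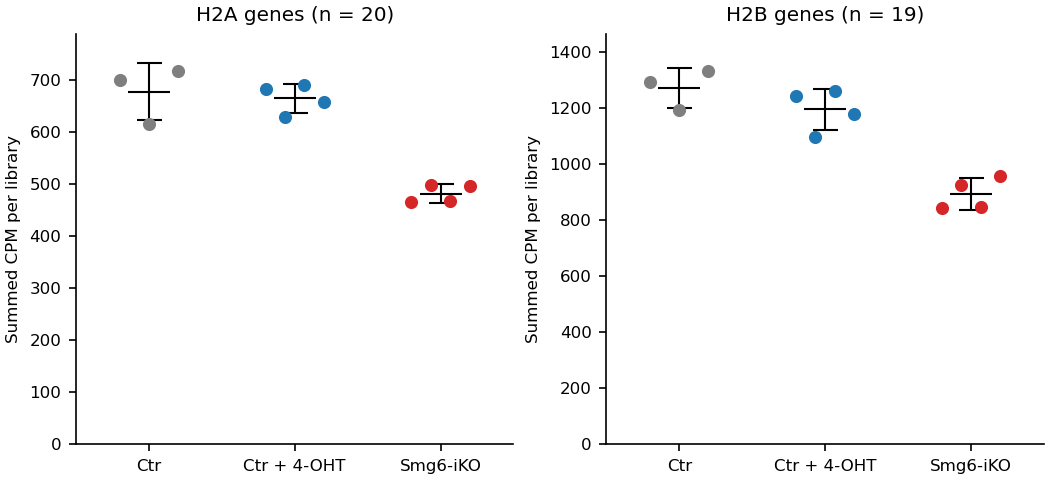
Summed CPM of the 20 H2A genes (left) and the 19 H2B genes (right) in each of the 11 libraries, with the mean and SD of each group as black bars. The 4 *Smg6*-iKO libraries lie at 465 to 498 CPM for H2A and at 843 to 959 CPM for H2B, below all control libraries.

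The comparison of *Smg6*-iKO with Ctr + 4-OHT sets side by side cells under the same drug. Besides the deletion, these groups differ in CreER genotype and in embryo. Here 19 of the 31 tested members fell and 0 rose (edgeR's quasi-likelihood test, adjusted p under 0.05), whereas 0.416% of all 17558 genes tested were called lower. The median log2 fold change of the 31 was -0.42, against 0.012 over all genes tested. By class, 11 of 14 H2A genes (median -0.45) and 8 of 17 H2B genes (median -0.42) fell. The called members lay between 23.0% and 35.4% below the control. For 22 of the 31 genes the highest *Smg6*-iKO library was lower than the lowest Ctr + 4-OHT library, against 5.99% of all genes tested, and each of these had an exact two-sided permutation p of 0.0286, the smallest that 4 against 4 libraries allow. DESeq2's Wald test called 24 of the 31 lower and 0 higher, against 3.39% and 2.67% of the 14401 genes to which it gave an adjusted p. The number of calls by edgeR depended on single libraries. It was 8 without *Smg6*-iKO SMH_127 and 8 without *Smg6*-iKO SMH_132, when the lower calls over all genes also fell from 73 to 14 and 11, while the median stayed at -0.40 and -0.42. The same 8 genes were called in both cases, namely *Hist1h2ab*, *Hist1h2ad*, *Hist1h2ae*, *Hist1h2ak*, *Hist1h2bb*, *Hist1h2bg*, *Hist1h2bk* and *Hist2h2ac*.

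The H2A gene *Hist1h2ae* (ENSMUSG00000069272, chromosome 13, 23570517 to 23571220 of GRCm38) was measured at 18.1, 18.0, 17.0 and 18.0 CPM in *Smg6*-iKO, at 27.0, 26.4, 30.4 and 27.2 CPM in Ctr + 4-OHT and at 26.6, 22.1 and 25.2 CPM in Ctr. All *Smg6*-iKO libraries lay below all control libraries, while the control groups overlapped. Its log2 fold change was -0.63 (SE 0.066, adjusted p = 0.0019) against Ctr + 4-OHT and -0.47 (SE 0.077, adjusted p = 0.0069) against Ctr. The H2B gene *Hist1h2bk* (ENSMUSG00000062727, chromosome 13, 22035870 to 22036345) lay at 60.9, 68.6, 61.1 and 70.1 CPM in *Smg6*-iKO, at 101, 86.9, 109 and 99.4 CPM in Ctr + 4-OHT and at 101, 86.0 and 99.4 CPM in Ctr. All 4 *Smg6*-iKO libraries were again the lowest. It fell by 0.60 on the log2 scale (SE 0.079, adjusted p = 0.0076) against Ctr + 4-OHT and by 0.55 (SE 0.077, adjusted p = 0.0034) against Ctr. The H2A genes *Hist1h2ad* (-0.59, adjusted p = 0.0033), *Hist1h2ag* (-0.58, adjusted p = 0.0181) and *Hist1h2ah* (-0.52, adjusted p = 0.0125) were the next by size of the log2 fold change, with *Hist1h2ah*, *Hist1h2ag* and *Hist1h2bk* within one stretch of chromosome 13 and *Hist1h2ae* and *Hist1h2ad* in another. *Hist1h2ah* has the fewest countable windows of the tested genes. *Hist1h2ag* and *Hist1h2ah* lost their calls without *Smg6*-iKO SMH_127 or SMH_132 (adjusted p from 0.0501 to 0.0693), and against Ctr without Ctr SMH_128 (0.0564 and 0.0527). *Hist1h2ag* also lost its call without Ctr + 4-OHT SMH_131 (0.0519).

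Ctr, the untreated cultures, came from 3 of the 4 embryos of *Smg6*-iKO. Against Ctr 24 of the 31 members fell and 0 rose, and 4.98% of all 17974 genes tested were called lower. The median log2 fold change was -0.48, against 0.0055 over all genes. Among H2A genes 10 of 14 fell (median -0.49), and among H2B genes 14 of 17 (median -0.48). The called members lay 21.4% to 39.2% below Ctr. For 26 of the 31 genes the highest *Smg6*-iKO library was lower than the lowest Ctr library, against 11.9% of all genes. With 4 against 3 libraries an exact two-sided permutation test cannot go below 0.0571. Both comparisons share the *Smg6*-iKO libraries, and 18 members were called lower in both, 1 (*Hist1h2an*) against Ctr + 4-OHT alone, 6 against Ctr alone and 6 in neither. The call of *Hist1h2an* was lost in each of 8 fits without 1 library (adjusted p from 0.0519 to 0.121).

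*Hist1h2bb* (ENSMUSG00000075031, chromosome 13, 23746734 to 23747241), the H2B gene with the most counts, was at 142, 155, 145 and 152 CPM in *Smg6*-iKO, at 221, 208, 231 and 196 CPM in Ctr + 4-OHT and at 245, 226 and 241 CPM in Ctr. The *Smg6*-iKO libraries formed a group of their own. Its log2 fold change was -0.68 (SE 0.056, adjusted p = 0.00012) against Ctr and -0.52 (SE 0.061, adjusted p = 0.0040) against Ctr + 4-OHT. *Hist1h2bp* (ENSMUSG00000069308, chromosome 13, 21787461 to 21789213) was measured at 19.9, 24.5, 18.6 and 23.5 CPM in *Smg6*-iKO, at 30.9, 28.9, 31.6 and 31.7 CPM in Ctr + 4-OHT and at 36.6, 34.2 and 36.0 CPM in Ctr. Its libraries stood in the order *Smg6*-iKO, Ctr + 4-OHT, Ctr without overlap. It fell by 0.72 on the log2 scale against Ctr (SE 0.092, adjusted p = 0.0026) and by 0.50 against Ctr + 4-OHT (SE 0.090, adjusted p = 0.0313), while Ctr + 4-OHT differed from Ctr by -0.21 (adjusted p = 0.432). The call of *Hist1h2bp* against Ctr + 4-OHT was lost without Ctr + 4-OHT SMH_125, SMH_129 or SMH_131 and without *Smg6*-iKO SMH_127, SMH_132 or SMH_133 (adjusted p from 0.0564 to 0.108). *Hist1h2bf* (-0.65, adjusted p = 0.0069), *Hist1h2bg* (-0.63, adjusted p = 0.00069) and the H2A gene *Hist1h2af* (-0.62, adjusted p = 0.0032) followed against Ctr. *Hist1h2af* was also called against Ctr + 4-OHT (-0.43, adjusted p = 0.0142), but not without *Smg6*-iKO SMH_127, SMH_132 or SMH_133 (0.0517 to 0.0612). Against Ctr + 4-OHT, *Hist1h2bf* was not called by edgeR (-0.40, adjusted p = 0.0999) and was called lower by DESeq2's Wald test (adjusted p = 0.0120) and by edgeR without the count filter (0.0381), and all its *Smg6*-iKO libraries (19.4 to 26.6 CPM) lay below the Ctr + 4-OHT libraries (28.1 to 33.6 CPM).

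**Figure D3:**
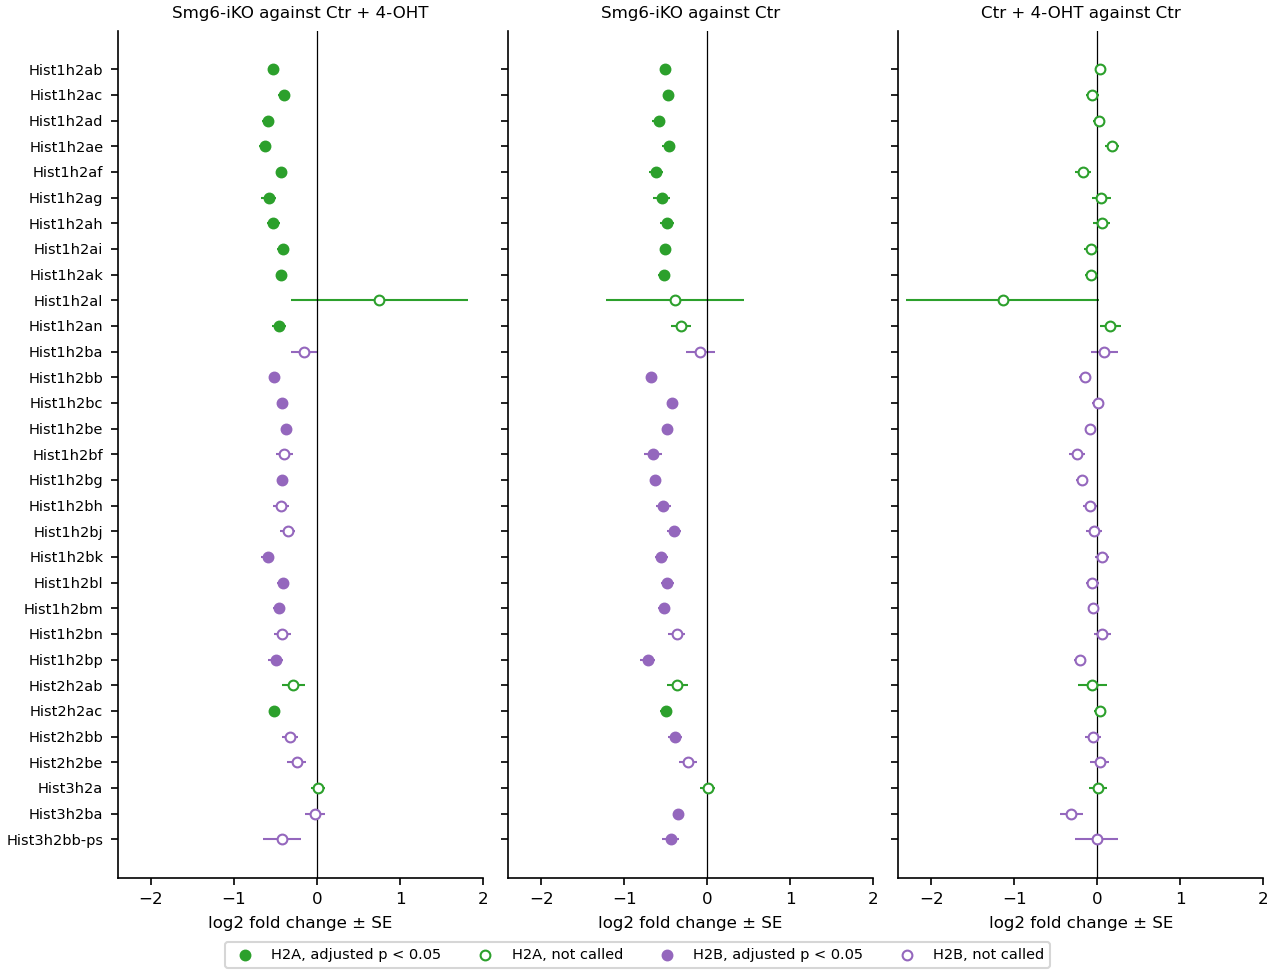
Log2 fold change with SE of the 31 tested members in the 3 comparisons, H2A genes in green and H2B genes in purple, filled where the adjusted p was under 0.05. Filled points lie on the negative side in both comparisons of *Smg6*-iKO (19 and 24 of 31), and no point is filled for Ctr + 4-OHT against Ctr.

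Within the 3 embryos that gave both libraries, the difference could be read in the same animal. The median over the 31 members of the log2 ratio of *Smg6*-iKO to Ctr was -0.50 in embryo SMH_128, -0.43 in embryo SMH_132 and -0.50 in embryo SMH_133. In 29 members the ratio was below 0 in 3 of 3 embryos and in the other 2 (*Hist3h2a* and *Hist1h2ba*) in 2 of 3. The share of all genes below 0 in 3 of 3 embryos was not counted, so this number has no background beside it. With the embryo as a block, 28 of 31 members were called lower, when 11.2% of all genes were called lower, and the median was -0.47. The calls gained were *Hist1h2an* (-0.34, adjusted p = 0.0084 with the block, 0.119 without), *Hist1h2bn* (-0.30, 0.0068 with the block, 0.0501 without), *Hist2h2ab* (-0.37, 0.0366 with the block, 0.103 without) and the pseudogene *Hist1h2al* (-0.65, 0.0010 with the block, 0.809 without). *Hist1h2ba*, *Hist2h2be* and *Hist3h2a* were not called in either fit.

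**Figure D4:**
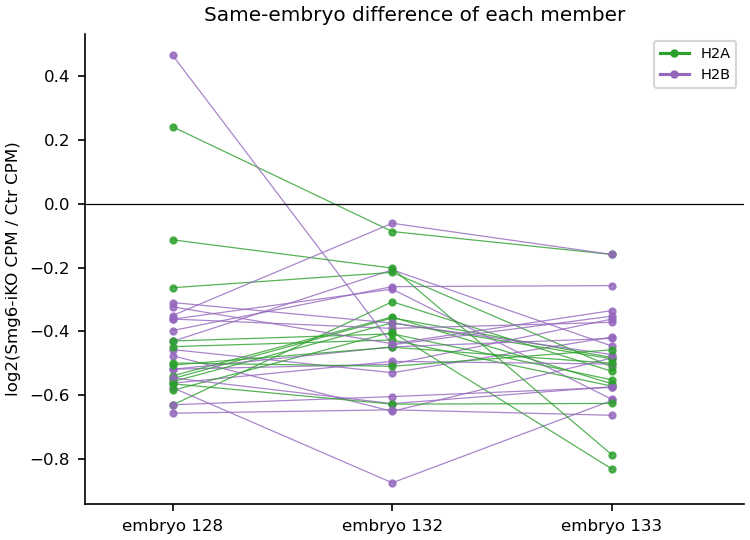
Log2 ratio of *Smg6*-iKO to Ctr CPM in each of the 3 embryos that gave both libraries, for 30 tested members without the pseudogene *Hist1h2al*; lines join the values of a gene and the embryos have no order. Values above 0 occur in embryo SMH_128 alone, for *Hist3h2a* and *Hist1h2ba*.

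The drug alone was compared in Ctr + 4-OHT against Ctr, groups that also differ in CreER genotype and embryo. By edgeR's quasi-likelihood test 0 of 31 members were called, when 0.221% of all 17665 genes were called in either direction, and DESeq2's Wald test also called 0, against 0.61% lower and 0.215% higher of the genes to which it gave an adjusted p. At an unadjusted p under 0.05 there were 3 of 31, against 8.28% of all genes. The lowest adjusted p was 0.432 (*Hist1h2bp*), and without the pseudogene *Hist1h2al* the log2 fold changes ranged from -0.31 to 0.17 around a median of -0.052. The mean H2A sum of Ctr + 4-OHT was 1.89% and the mean H2B sum 6.10% below that of Ctr, and the libraries of the groups overlapped for both.

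The Hist1 cluster held 18 of the 19 members called against Ctr + 4-OHT and 20 of the 24 called against Ctr, from 24 of the 31 tested. It lies in a block of 16 members between *Hist1h2bl* and *Hist1h2bj*, a block of 13 members between *Hist1h2af* and *Hist1h2aa*, and the pseudogene *Hist1h2al* apart from both. In the block from *Hist1h2bl*, 9 of 11 tested members fell in each comparison with a control (median -0.46 against Ctr + 4-OHT and -0.50 against Ctr). In the block from *Hist1h2af*, 9 of 12 fell against Ctr + 4-OHT (median -0.43) and 11 of 12 against Ctr (median -0.52). Without *Smg6*-iKO SMH_127 or SMH_132, only *Hist1h2ak* and *Hist1h2bk* stayed called against Ctr + 4-OHT in the block from *Hist1h2bl*. In the block from *Hist1h2af* these were *Hist1h2ab*, *Hist1h2ad*, *Hist1h2ae*, *Hist1h2bb* and *Hist1h2bg*. Summed CPM of the blocks were 27.8% and 28.2% below Ctr + 4-OHT in *Smg6*-iKO. The tested gene nearest 0 in both blocks was *Hist1h2ba*, measured at 2.51, 2.97, 1.98 and 2.28 CPM in *Smg6*-iKO, at 2.64, 2.34, 2.97 and 2.97 CPM in Ctr + 4-OHT and at 2.15, 2.68 and 2.91 CPM in Ctr. Its groups overlapped, and its log2 fold changes were -0.16 (SE 0.16) and -0.084 (SE 0.18) against Ctr + 4-OHT and Ctr.

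In the Hist2 cluster 4 of 6 members were tested. *Hist2h2ac* was at 26.3, 25.7, 28.5 and 28.8 CPM in *Smg6*-iKO, at 41.5, 38.2, 39.6 and 38.8 CPM in Ctr + 4-OHT and at 36.4, 38.9 and 40.7 CPM in Ctr. All *Smg6*-iKO libraries lay below both control groups, which overlapped each other. Its log2 fold change was -0.52 (SE 0.062, adjusted p = 0.0040) against Ctr + 4-OHT and -0.50 (SE 0.065, adjusted p = 0.0027) against Ctr. *Hist2h2bb*, the member with the highest level per kb, was at 127.6, 144, 121 and 152 CPM in *Smg6*-iKO, 171, 146, 187 and 187 CPM in Ctr + 4-OHT and 180, 164 and 192 CPM in Ctr. One *Smg6*-iKO library (SMH_133) reached above the lowest Ctr + 4-OHT library (SMH_126). It was called against Ctr (-0.39, SE 0.085, adjusted p = 0.0203) and not against Ctr + 4-OHT (-0.33, SE 0.095, adjusted p = 0.125). Against Ctr + 4-OHT it was called by DESeq2's Wald test (adjusted p = 0.0277) and by edgeR without the count filter (0.0482). The call against Ctr was lost without Ctr SMH_128, Ctr SMH_133 or *Smg6*-iKO SMH_127 (adjusted p from 0.0501 to 0.0719). *Hist2h2ab* (-0.29 and -0.36) and *Hist2h2be* (-0.25 and -0.23) were called against neither control without the block.

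In the Hist3 cluster no member was called against Ctr + 4-OHT by edgeR or DESeq2. *Hist3h2a* (ENSMUSG00000078851, chromosome 11, 58954685 to 58956830) was at 17.4, 17.0, 16.7 and 16.5 CPM in *Smg6*-iKO, 17.9, 18.6, 16.1 and 15.0 CPM in Ctr + 4-OHT and 14.4, 17.7 and 18.4 CPM in Ctr. The *Smg6*-iKO values lay inside the range of the controls. Its log2 fold change was 0.011 (SE 0.081, adjusted p = 0.961) against Ctr + 4-OHT and 0.0073 (SE 0.091, adjusted p = 0.972) against Ctr, and its sign turned under several settings, the length correction among them. As the sums of the other H2A genes were lower, *Hist3h2a* made up 3.32% to 3.75% of the H2A sum in *Smg6*-iKO libraries and 2.06% to 2.96% in controls. *Hist3h2ba* (ENSMUSG00000056895, chromosome 11, 58948920 to 58949533) was at 56.1, 51.2, 54.7 and 55.3 CPM in *Smg6*-iKO, at 69.8, 54.8, 42.5 and 55.5 CPM in Ctr + 4-OHT and at 69.0, 63.1 and 75.3 CPM in Ctr. It lay below every Ctr library but within the wide range of Ctr + 4-OHT. Its log2 fold change was -0.35 (SE 0.069, adjusted p = 0.0152) against Ctr and -0.022 (SE 0.12, adjusted p = 0.948) against Ctr + 4-OHT, while Ctr + 4-OHT against Ctr gave -0.31 (adjusted p = 0.616). The call against Ctr was lost with all 11 libraries in one fit (-0.35, adjusted p = 0.131) and without Ctr SMH_128 (-0.35, adjusted p = 0.0590). The pseudogene *Hist3h2bb-ps*, which starts 172 bases from *Hist3h2a* in the opposite direction, had log2 fold changes of -0.42 (SE 0.23, adjusted p = 0.390) and -0.44 (SE 0.10, adjusted p = 0.0285) against Ctr + 4-OHT and Ctr, and the latter call was lost with all 11 libraries in one fit (0.281) and without Ctr SMH_128, SMH_132 or SMH_133 or *Smg6*-iKO SMH_127 or SMH_133 (0.0549 to 0.0869).

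**Figure D5:**
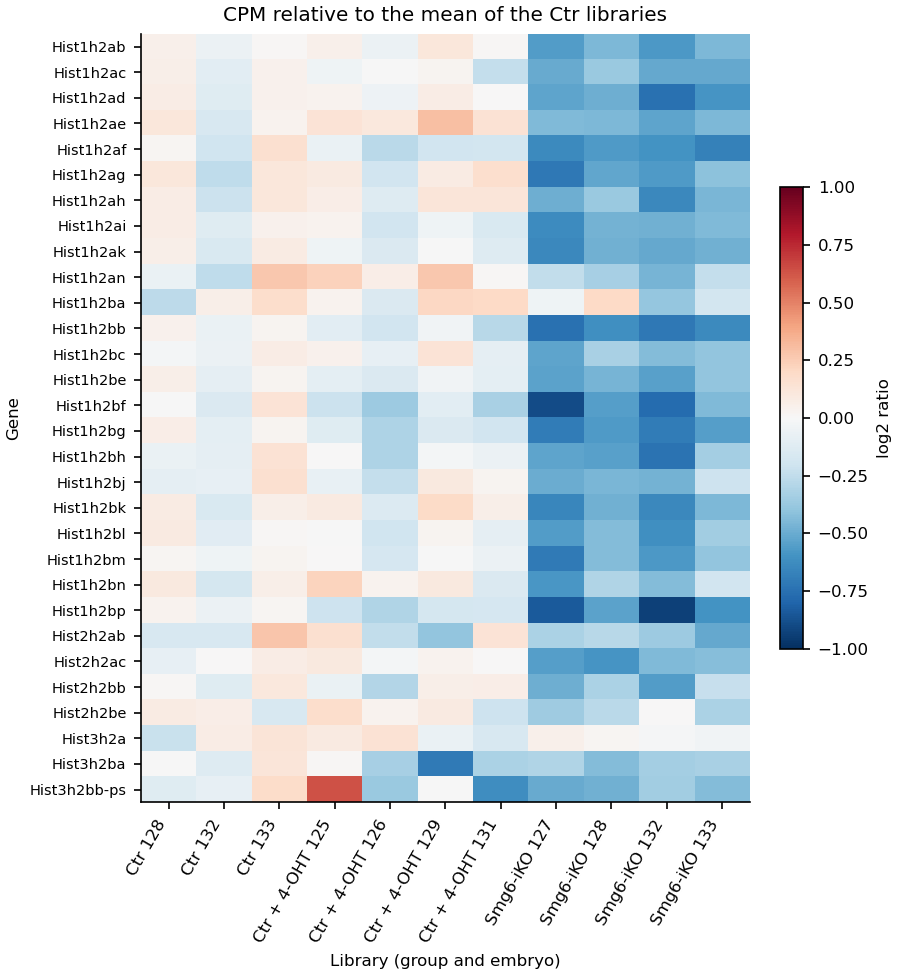
Log2 ratio of CPM to the mean of the 3 Ctr libraries for 30 tested members (rows, without *Hist1h2al*) in the 11 libraries (columns, named by group and embryo), on a colour scale from -1 to 1. The 4 *Smg6*-iKO columns are blue in nearly all rows, with *Hist3h2a* and *Hist1h2ba* pale, and *Hist3h2ba* is blue in 3 of the 4 Ctr + 4-OHT columns as well.

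Genes that share a start region could be compared in 10 pairs with both genes tested. Both log2 fold changes were negative in 9 of the 10 pairs in each comparison with a control, and the pair with *Hist3h2a* was the exception. The difference between the partners' log2 fold changes had a median size of 0.13 against Ctr + 4-OHT and 0.15 against Ctr. For *Hist1h2ai* and *Hist1h2bl* the values against Ctr + 4-OHT were -0.41 and -0.41, and for *Hist1h2ah* and *Hist1h2bk* -0.52 and -0.60. *Hist1h2ae* and *Hist1h2bg*, whose shared region is printed above, changed places between comparisons, with -0.63 and -0.43 against Ctr + 4-OHT and -0.47 and -0.63 against Ctr. Levels of partners ranged from alike to far apart. *Hist1h2an* had a mean of 40.1 CPM per kb and *Hist1h2bp* 40.8 over all libraries. *Hist1h2ak* had a mean of 384 CPM per kb over all libraries and its partner *Hist1h2bn* 50.6, of whose windows 47.7% and 13.6% are found nowhere else. *Hist2h2ac* had 67.0 CPM per kb and its partner *Hist2h2be*, a long model, 4.67.

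Members were also described by the kind of annotated model. Among short models that include the stem-loop, 10 of 13 tested members fell against Ctr + 4-OHT and 13 of 13 against Ctr (medians -0.52 and -0.55). Among short models in which it was not found, 6 of 10 fell in each comparison (medians -0.41 and -0.44). Among models of over 1000 bases, 3 of 6 fell against Ctr + 4-OHT and 4 of 6 against Ctr (medians -0.39 and -0.45). The counts against Ctr + 4-OHT depended on single libraries. Without *Smg6*-iKO SMH_127 or SMH_132 the 8 members still called held no long model. *Hist1h2ak* was the only short model among them in which the stem-loop was not found. Summed CPM in *Smg6*-iKO were 28.2%, 24.8% and 23.5% below Ctr + 4-OHT for these kinds of model, and the difference between the kinds was not tested.

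The other replication-dependent histone genes were tested beside them. Of 31 H1, H3 and H4 genes, 29 were tested in both comparisons with *Smg6*-iKO, and 13 fell against Ctr + 4-OHT (median -0.35) and 23 against Ctr (median -0.42), with 0 higher. Without 1 library the former count ranged from 2 to 11 (2 without *Smg6*-iKO SMH_127 or SMH_132, 4 without Ctr + 4-OHT SMH_131, 7 without Ctr + 4-OHT SMH_125 and 8 without *Smg6*-iKO SMH_133) and the latter from 14 to 23 (14 without Ctr SMH_128 or SMH_133), with medians from -0.41 to -0.32 and from -0.50 to -0.37. DESeq2's Wald test called 22 and 24 of them lower, against 3.39% and 9.89% of the genes to which it gave an adjusted p. Of 6 replacement H2A genes, which are expressed outside S phase too, *H2afx*, the variant that is phosphorylated at DNA breaks, fell against both controls (-0.34, adjusted p = 0.0350, and -0.32, adjusted p = 0.0230). Its call against Ctr + 4-OHT was lost in 7 of 8 fits without 1 library (adjusted p from 0.0585 to 0.114), and that against Ctr without Ctr SMH_128 or SMH_133 or *Smg6*-iKO SMH_132 or SMH_133 (0.0529 to 0.0736). *H2afv*, a variant of the H2A.Z type, fell against Ctr (-0.44, adjusted p = 0.0032) and gave -0.27 against Ctr + 4-OHT (adjusted p = 0.113, and 0.0242 by DESeq2's Wald test). *H2afz* was the other call by edgeR against Ctr (-0.27, adjusted p = 0.0446), lost in 6 of 7 fits without 1 library (0.0693 to 0.122), with upper-quartile normalization (0.0626) and without the count filter (0.0615). With the embryo as a block its adjusted p was 0.0119, and against Ctr + 4-OHT (-0.30, adjusted p = 0.0634) it was called by DESeq2 (0.00367), with all 11 libraries in one fit (0.0259) and with the length correction (0.0396). DESeq2's Wald test called 4 of the 6 lower against each control, the other being *H2afy* (macroH2A), with adjusted p values of 0.00892 against Ctr + 4-OHT and 0.0176 against Ctr. By edgeR *H2afy* gave -0.17 against each control (0.120 and 0.0664, and 0.0216 against Ctr with the block).

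Genes of histone mRNA synthesis and decay formed a list of their own. Of 29 tested, edgeR's quasi-likelihood test called 0 against Ctr + 4-OHT (median -0.059), where 10 had an unadjusted p under 0.05 and DESeq2's Wald test called 5 lower (*Cstf2*, *Eri1*, *Slbp*, *Snrpe* and *Snrpg*). Over all genes 16.7% had such an unadjusted p. Against Ctr edgeR called 4 lower (median -0.050) and DESeq2 called 6, and with the embryo as a block edgeR called 7 lower and 2 higher, against 11.2% and 10.3% of all genes. Without 1 library edgeR called from 0 (without Ctr SMH_128, Ctr SMH_132 or *Smg6*-iKO SMH_133; 2 without Ctr SMH_133 or *Smg6*-iKO SMH_132) to 5 lower. The 2 called higher were *Upf1*, the helicase of histone mRNA decay (0.22 with the block, adjusted p = 0.0124), and *Tut7*, a uridylyl transferase (0.15, adjusted p = 0.0292). Without the block *Upf1* gave 0.24 (adjusted p = 0.220) and 0.22 (adjusted p = 0.172) against Ctr + 4-OHT and Ctr, and *Tut7* 0.14 (0.120) and 0.15 (0.0713). *Slbp*, the stem-loop binding protein, gave -0.21 (adjusted p = 0.0958) and -0.23 (adjusted p = 0.0354) against Ctr + 4-OHT and Ctr by edgeR. By DESeq2's Wald test its adjusted p against Ctr + 4-OHT was 0.00925, and its call by edgeR against Ctr was lost with upper-quartile normalization (0.0513) and in 6 of 7 fits without 1 library (0.0695 to 0.0967), and was 0.0120 with the block. *Npat*, the coactivator of histone gene transcription, gave -0.15 (adjusted p = 0.237) and -0.27 (adjusted p = 0.0174). *Pou2f1* (OCT1) gave -0.054 (adjusted p = 0.686) and -0.28 (adjusted p = 0.0152). The calls of *Npat* and *Pou2f1* were each lost without Ctr SMH_128, Ctr SMH_132 or *Smg6*-iKO SMH_133 (adjusted p from 0.0518 to 0.0699). The fourth call was *Snrpe*, a protein of the splicing machinery, lost in 5 of 7 such fits (0.0615 to 0.0765). Of 8 chaperones of H2A and H2B, edgeR called 0 against Ctr + 4-OHT, where 4 had an unadjusted p under 0.05 and DESeq2 called 1 (*Ssrp1*) lower, and 2 fell against Ctr, *Anp32e* (-0.28, adjusted p = 0.0111), which removes H2A.Z, and *Npm1* (-0.22, adjusted p = 0.0456). The call of *Anp32e* was lost without Ctr SMH_128 (0.0501). That of *Npm1* was lost with upper-quartile normalization (0.0673), with all 11 libraries in one fit (0.130) and in 6 of 7 fits without 1 library (0.0886 to 0.118), and its adjusted p with the block was 0.0076.

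Genes of S phase were measured beside the histone genes. All 34 on the list were tested, and their log2 fold changes were below 0 against both controls, from values near 0 (*E2f1* at -0.0068 and *Tyms* at -0.028 against Ctr) downwards, with medians of -0.29 and -0.26. Of these, 2 fell against Ctr + 4-OHT, *Ccna2*, an S-phase cyclin (-0.45, adjusted p = 0.0425), and *Mcm3*, a subunit of the replicative helicase (-0.33, adjusted p = 0.0407), and 13 fell against Ctr, *Ccna2* (-0.46, adjusted p = 0.0053) and *Mcm6* (-0.37, adjusted p = 0.0134) the most. The calls of *Ccna2* and *Mcm3* against Ctr + 4-OHT were each lost in 7 of 8 fits without 1 library (adjusted p from 0.0557 to 0.146). The count ranged from 2 to 14 by edgeR over the settings that kept all libraries, and without 1 library from 0 (without Ctr + 4-OHT SMH_129 or SMH_131 or *Smg6*-iKO SMH_127 or SMH_132) to 11 (without Ctr + 4-OHT SMH_126). Against Ctr it ranged from 7 to 24, and without 1 library from 4 (without Ctr SMH_133; 5 without Ctr SMH_132 and 8 without *Smg6*-iKO SMH_127, SMH_132 or SMH_133) to 11. DESeq2's Wald test called 22 of the 34 lower against Ctr + 4-OHT and 20 against Ctr, against 3.39% and 9.89% of the genes to which it gave an adjusted p. With the embryo as a block edgeR called 22 lower against Ctr, against 11.2% of all genes. In its main fits edgeR called 0.416% of all genes lower against Ctr + 4-OHT and 4.98% against Ctr. Summed CPM of the list ranged from 1922 to 2095 in *Smg6*-iKO, from 2240 to 2671 in Ctr + 4-OHT and from 2277 to 2598 in Ctr. The number of cycling cells was not measured here, and whether it had a part in the fall of histone genes was not tested. The progenitor markers summed to 4861 to 5525 CPM in *Smg6*-iKO, 5155 to 6315 in Ctr + 4-OHT and 5802 to 6040 in Ctr, and 1 of 8 (*Mki67*, a marker of cycling cells) fell against Ctr + 4-OHT and 5 against Ctr. The call of *Mki67* against Ctr + 4-OHT was lost in 5 of 8 fits without 1 library (adjusted p from 0.0615 to 0.126). The 5 against Ctr (*Fabp7*, *Mki67*, *Pax6*, *Sox1* and *Sox2*) became 1 without Ctr SMH_128 or SMH_132 (*Mki67*), 2 without *Smg6*-iKO SMH_133 and 2 with all 11 libraries in one fit. *Fabp7* (adjusted p = 0.0301) was lost in 5 of 7 fits without 1 library (0.0627 to 0.103). Of 5 neuron markers, summed at 1824 to 2068 CPM in *Smg6*-iKO, 1447 to 2361 in Ctr + 4-OHT and 1585 to 1726 in Ctr, edgeR called 0, while against Ctr 3 had an unadjusted p under 0.05, against 26.9% of all genes. DESeq2 called *Dcx* and *Tubb3* higher against Ctr, as it did 7.04% of genes, and edgeR with the embryo as a block called the same pair. Without the count filter edgeR called 4 higher against Ctr. The fibroblast markers (0 of 3 called by edgeR with the count filter or by DESeq2, 3 of 3 higher against Ctr by edgeR without the filter, 1 at an unadjusted p under 0.05 against Ctr, and *Col1a1* called higher with the block at 0.26, adjusted p = 0.0289) ranged from 217 to 1164 CPM in *Smg6*-iKO, 234 to 664 in Ctr + 4-OHT and 277 to 405 in Ctr. Among 3 astrocyte markers *Gfap* rose against Ctr (1.33, adjusted p = 0.0288), a call lost with all 11 libraries in one fit (0.284) and without Ctr SMH_132, Ctr SMH_133 or *Smg6*-iKO SMH_127 (0.0585 to 0.112). With the embryo as a block *Gfap* gave 1.13 (adjusted p = 5.96e-08). The 4 tested oligodendrocyte markers, the 1 tested microglia marker and the 2 tested endothelial markers were called in no comparison by edgeR with the count filter and without the block, or by DESeq2, with 1 oligodendrocyte marker at an unadjusted p under 0.05 in each comparison with Ctr, microglia markers summing to at most 3.79 CPM, and the 2 erythroid markers stayed under 0.1 CPM. Without the count filter *Mbp* and the microglia marker *Cx3cr1* were called higher against Ctr. With the embryo as a block the oligodendrocyte markers *Mbp* (0.56, adjusted p = 5.59e-05) and *Olig2* (0.17, adjusted p = 0.0292) were called higher against Ctr. The part of these cell types in the histone values was not tested.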

How the data were processed

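Total RNA of 11 neural stem cell cultures was sequenced after ribosomal depletion with a stranded kit. Per the submitters' processing notes and the study's methods, single reads of 50 bases were mapped to GRCm38 with STAR 2.5.4b and counted on Ensembl 92 genes with featureCounts 1.5.0, on the sense strand and for reads of a single position alone. The authors deposited these counts per gene and library without normalization, and they are used here as whole-number counts. Symbols came from GENCODE M21, which paired 53706 of 53801 identifiers.

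Counts were tested in R 4.3.3 with edgeR 4.0.16 (filterByExpr by group, TMM, quasi-likelihood test, Benjamini-Hochberg adjustment over all genes, threshold 0.05), each comparison fitted to its own groups. The SE of a log2 fold change was taken as its size over the root of the F statistic. CPM were scaled by TMM over the 11 libraries and divided by the counted length where genes are compared. Groups and embryo numbers came from the labels. Embryos SMH_128, SMH_132 and SMH_133 gave a library in both Ctr and *Smg6*-iKO, and the deviations of these same-animal libraries from their group means correlated at 0.328, 0.399 and 0.425. Ctr + 4-OHT shares no embryo with another group. The libraries of a group came from different embryos. Intervals that cover counting error alone were not used, since the SD and SE hold both sources.

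The members, gene lists and named genes were chosen with earlier results of these data known. Named members were the 5 called genes of largest change per comparison with a control without overlap of libraries, the highest H2A and H2B gene per kb in each cluster, those with a change nearest 0 or positive against both controls, the testis-type genes and those below the count filter. Genes outside this rule that are named besides (among them *Hist1h2al*, *Hist1h2an*, *Hist1h2bn*, *Hist2h2ab*, *Hist2h2be* and *Hist3h2bb-ps*) were chosen after their values were seen. Shared windows were searched in GENCODE M21 transcripts, without gene models that overlap the member's own locus. Reads were not matched to the genome here.

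Alternatives were DESeq2's size factors, upper-quartile normalization, no filter, a mean of at least 10 counts, all libraries in one fit, the Wald test of DESeq2 1.42.0, a loess correction for gene length (span 0.3), the embryo as a block, and each library left out. The fits were tested on simulated counts with known changes. Figures were drawn with matplotlib 3.10.9.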

Additional observations from a re-analysis of the deposited data

Results flagged for a closer look

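Of 66 sets of 4 libraries (31 members and both class sums in Ctr + 4-OHT and *Smg6*-iKO), 5 held a library far from the other 3, by Dixon's criterion at 95%. Chance alone gives about 1 in 20 such sets. *Hist1h2bj* stood at 67.6 CPM in *Smg6*-iKO SMH_133, above the 55.5, 56.2 and 57.1 CPM of the others. *Hist1h2ae* stood at 17.0 CPM in *Smg6*-iKO SMH_132, below 18.0, 18.0 and 18.1 CPM, and *Hist1h2ac* at 43.6 CPM in *Smg6*-iKO SMH_128, above 39.5, 39.6 and 39.8 CPM. The 2 last are small gaps between close values.

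The pseudogene *Hist1h2al* (chromosome 13, 51202727 to 51203065, far from both blocks of the Hist1 cluster) was found at 12.1 CPM in Ctr + 4-OHT SMH_131, above 0.447, 0.485 and 0.498 CPM in the other 3 libraries, and at 0.180 CPM in *Smg6*-iKO SMH_132, below 7.11, 7.28 and 8.08 CPM in the others. In Ctr it lay at 10.3, 0.479 and 11.9 CPM in embryos SMH_128, SMH_132 and SMH_133. Embryo SMH_132 was thus low in both of its libraries, and embryos SMH_128 and SMH_133 were high in both. The levels went with the embryo rather than the group, and with the embryo as a block its log2 fold change against Ctr was -0.65 (adjusted p = 0.0010 by edgeR) where it had been -0.39 (adjusted p = 0.809). The mice were of mixed background, and whether this locus differs between the strains was not tested.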

How the results depend on the processing

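No alternative gave a member called higher in any comparison. Against Ctr + 4-OHT, 19 to 24 members were called lower under the alternatives that kept all libraries, and against Ctr 22 to 28, the highest with the embryo as a block (28, and 27 with the length correction besides). The block alone kept all 24 calls of members and added 4. Leaving out 1 library gave 8 to 18 calls against Ctr + 4-OHT, with 8 without *Smg6*-iKO SMH_127 and 8 without *Smg6*-iKO SMH_132, and 19 to 25 against Ctr. The median over members ranged from -0.46 to -0.40 and from -0.55 to -0.45 when 1 library was left out. Ctr + 4-OHT against Ctr gave 0 calls throughout, and its median of -0.052 became 0.035 with the length correction, 0.037 with a trend fitted without histone genes and 0.0095 without Ctr SMH_133.

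Without the 2 members of highest count, the H2A sums were 386 CPM in Ctr, 380 in Ctr + 4-OHT and 278 in *Smg6*-iKO, and the H2B sums 857, 809 and 609 CPM. The change of *Hist3h2a* against Ctr + 4-OHT turned to -0.0024 by DESeq2's test, -0.043 with the length correction and -0.043 with the trend without histone genes. Against Ctr it turned to -0.031 with either length correction, -0.0053 with the embryo as a block, -0.047 with block and length correction, and -0.0051 in the 3 paired embryos with the block. With 1 library left out it ranged from -0.047 (without Ctr + 4-OHT SMH_131) to 0.060 against Ctr + 4-OHT and from -0.091 (without Ctr SMH_128) to 0.071 against Ctr; *Hist1h2ba* against Ctr ranged from -0.20 to 0.0039 and *Hist3h2ba* against Ctr + 4-OHT from -0.14 (without Ctr + 4-OHT SMH_129) to 0.097 (without Ctr + 4-OHT SMH_125). None of these values was called, and the cause was not tested. Over 55 results of 27 genes (16 members, *Smg6* and 10 genes of the lists; other genes named in the text are not in this count), 64 refits without a library lost a call, 1 gained one, 9 reversed direction and 338 kept call and direction. Of the refits with all libraries 4 lost a call, 12 gained one, 8 reversed direction and 497 kept both. Over all genes, lower calls were 35.4% of all calls against Ctr + 4-OHT and 53.9% against Ctr, and the length correction moved these to 62.4% and 71.9%, and upper-quartile normalization the latter to 38.9%. For Ctr + 4-OHT the share was 55.9% by DESeq2's Wald test and 49.8% with all libraries in one fit, and with 1 library left out it ranged from 16.7% (without *Smg6*-iKO SMH_132; 19.4% without *Smg6*-iKO SMH_127) to 42.5%, against 51.7% to 64.6% for Ctr.

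Calls of 31 members rest on 3 or 4 libraries a group, and members with few countable windows on part of their sequence.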
